A study of Mus musculus with 11 samples.

Results

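The colony-stimulating factors and their receptors were followed by total RNA sequencing in microglia, the macrophages that reside in brain tissue, taken from adult mice and kept in culture. The 8 members were chosen by gene name: the ligands Csf1 (M-CSF), Csf2 (GM-CSF) and Csf3 (G-CSF) and the receptor genes Csf1r, Csf2ra, Csf2rb, Csf2rb2 and Csf3r, out of 34745 genes in the deposited table. All 8 were found, and 6 of them had at least 1 FPKM (counts scaled by gene length and library size) in at least 2 libraries and entered the tests, while Csf2 and Csf3 did not. The donors were C57BL/6 mice, 6 to 8 weeks old, and the cerebrum was the source tissue. Every culture, the untreated ones included, was kept for 10 to 14 days in medium that held M-CSF, the protein encoded by Csf1, at 10 ng/ml, and TGF-beta1 at 5 ng/ml. The 11 libraries formed 4 groups. Control cells were left untreated (n = 3), Pam3CSK4 cells received this synthetic TLR2 agonist at 100 ng/ml for 24 h (n = 2), IFN-gamma cells received interferon-gamma at 20 ng/ml for 24 h (n = 3), and Pam3CSK4+IFN-gamma cells, called the combined group, received Pam3CSK4 and then IFN-gamma at those doses and times (n = 3). The series' design text names the transcriptional state of microglia under a TLR2 agonist and IFN-gamma as its subject. The labels do not say whether replicates came from separate animals, so p-values measure only the spread between these samples, which may be technical. Nor do they say whether Pam3CSK4 was removed before IFN-gamma, or when cells given either treatment alone were harvested. Time since Pam3CSK4 therefore cannot be told apart from IFN-gamma where the combined group is compared with Pam3CSK4, nor in the interaction.

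CSF1 and interleukin-34 both bind CSF1R, a receptor tyrosine kinase whose signal keeps microglia alive. GM-CSF signals through a specific alpha chain, CSF2RA, and a common beta chain, CSF2RB, which also serves the receptors for IL-3 and IL-5. Mice carry an additional beta chain gene, Csf2rb2, whose product serves IL-3. G-CSF acts through CSF3R, a receptor best known from neutrophils and their precursors.

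Each library held between 15033702 and 20321017 counts. All 10 microglial markers examined had counts in every library, though Siglech was at 0.942 FPKM or less in those given Pam3CSK4. Their sum ran from 4834 to 7140 FPKM in Control and from 3932 to 4046 in IFN-gamma. It was 2789 to 2982 FPKM in Pam3CSK4 and 2085 to 2198 in the combined group. Aif1 went the other way, from 46.3 FPKM or less in Control to 105 or more in the libraries given Pam3CSK4. One library in each of 3 groups, replicate 3 of Control, replicate 1 of IFN-gamma and replicate 3 of the combined group, also had mural-cell and fibroblast RNA, and these are called the 3 stromal-positive libraries. The 12 markers used summed to 2270, 130.5 and 69.7 FPKM in the 3 libraries and to between 17.4 and 63.5 FPKM in the others, where nearly all of it was Cspg4. The smooth muscle actin gene Acta2 was at 865, 44.1 and 10.5 FPKM there and at 1.41 FPKM or less elsewhere. Each member result whose call differed without these libraries is given with and without them.

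After Pam3CSK4 alone, 5 of the 6 tested members fell and none rose, where 41.4% of the 10938 genes tested changed and 21.4% fell. After IFN-gamma alone, 3 members rose and Csf3r fell, where 41.6% of all tested genes changed, 20.0% up and 21.6% down. The combined group differed from Control in 5 members, 2 higher and 3 lower, where 47.6% of all tested genes changed, 23.4% up and 24.2% down. With the 3 stromal-positive libraries left out, 5 members were called in each of these 3 comparisons, where 53.9%, 46.8% and 53.2% of all tested genes changed. Against IFN-gamma alone, 3 members were lower in the combined group and none was higher, where 34.2% of all tested genes changed and 17.2% were lower. With the stromal-positive libraries left out this last count was 5, all lower, where 40.2% of all tested genes changed and 19.4% were lower. Calls are those of edgeR's quasi-likelihood F test at a Benjamini-Hochberg adjusted p under 0.05 over all tested genes. The comparisons with Control share its 3 libraries.

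**Figure D1:**
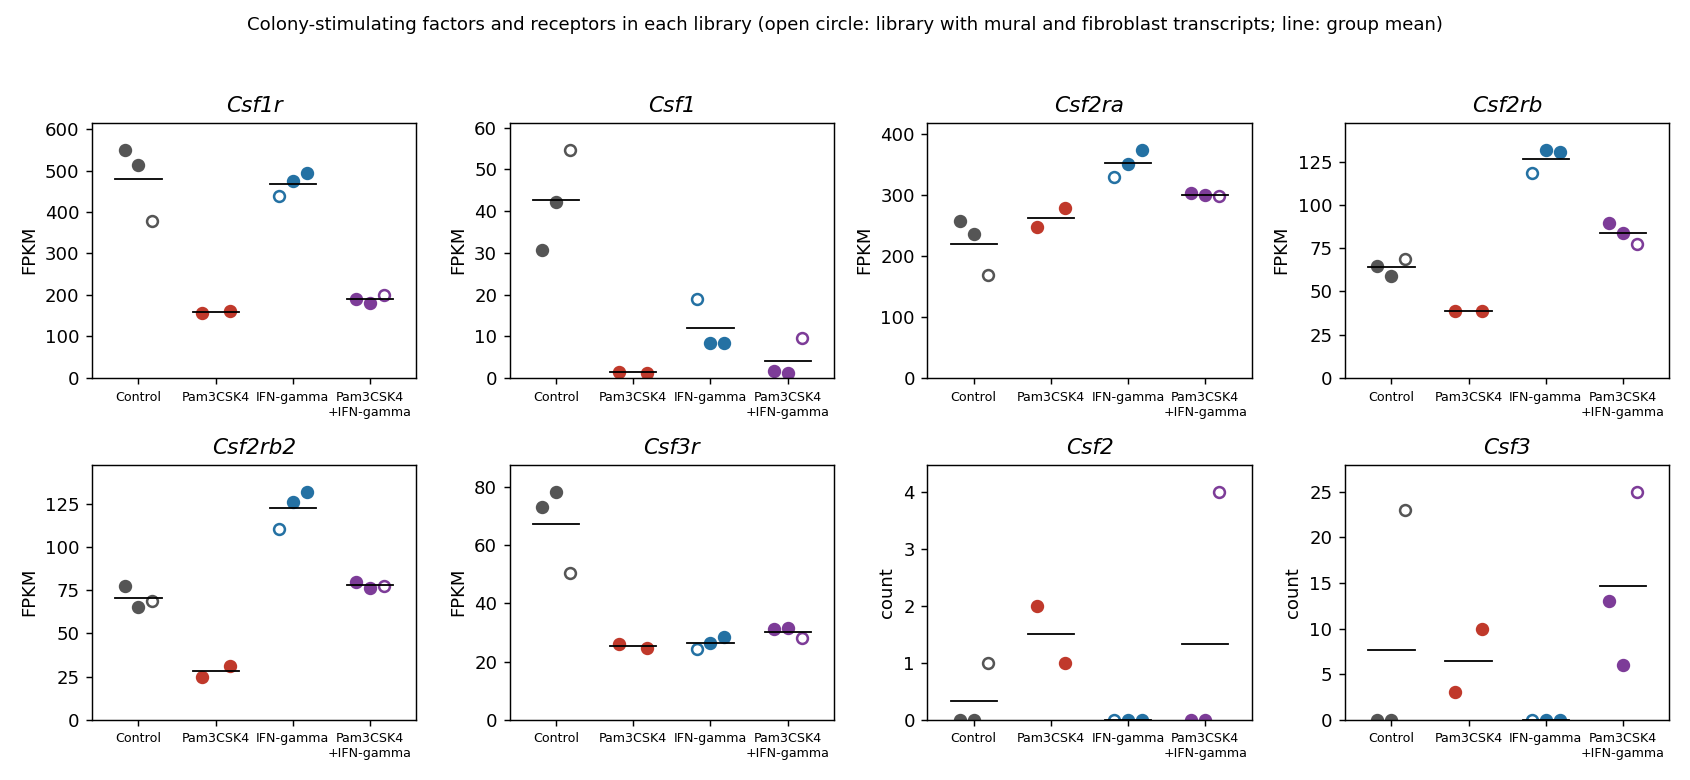
Level of each of the 8 genes in every library, in FPKM for 6 genes and as the raw count for Csf2 and Csf3, with the 4 groups on the horizontal axis, 1 point per library, a line at the group mean and open circles for the 3 stromal-positive libraries. Csf1r was low in the 5 libraries given Pam3CSK4 (157 to 200.2 FPKM), Csf2rb was highest in the IFN-gamma libraries (118 to 132 FPKM), and no library had more than 4 counts of Csf2.

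**Figure D2:**
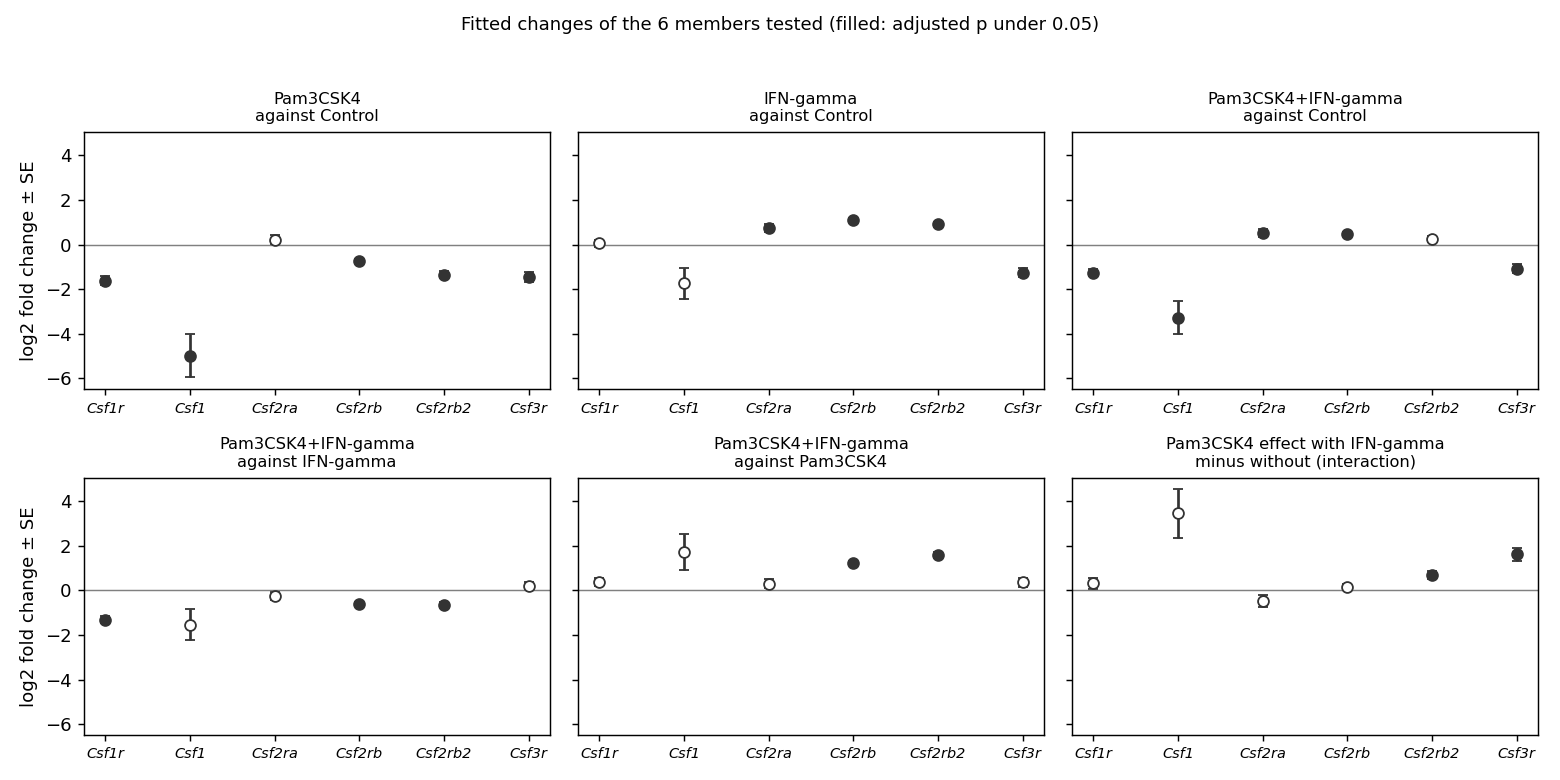
Fitted log2 fold change of the 6 tested genes in the 5 pairwise comparisons and the interaction, with bars of 1 standard error; filled points have an adjusted p under 0.05. After Pam3CSK4 alone all but Csf2ra were lower, whereas after IFN-gamma alone the 3 chains of the GM-CSF and IL-3 receptors were higher.

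Csf1r (ENSMUSG00000024621, mm10 chr18:61105572-61132149) was the most abundant member in Control cells. It stood at 549.6, 513 and 377 FPKM in Control, 438, 475 and 494 FPKM in IFN-gamma, 191, 180.1 and 200.2 FPKM in the combined group, and 157 and 160.1 FPKM in Pam3CSK4. The ranges of Control and IFN-gamma overlapped, both lay above the combined group, and Pam3CSK4 was lowest without overlap. Csf1r fell by 1.63 ± 0.20 on the log2 scale (SE) after Pam3CSK4 (adjusted p = 0.000209), a 3.09-fold decrease. In the combined group it fell by 1.26 ± 0.17 against Control (adjusted p = 0.000268) and by 1.31 ± 0.17 against IFN-gamma alone (adjusted p = 0.000385). After IFN-gamma alone the log2 difference was 0.05 ± 0.17 (adjusted p = 0.816). Its sign was not stable, with -0.11 without Control replicate 3 and -0.0399 without the 3 stromal-positive libraries. The combined group exceeded Pam3CSK4 by 0.37 ± 0.19 (adjusted p = 0.312), which became 0.37 with an adjusted p of 0.00866 without Control replicate 3, and 0.34 with an adjusted p of 0.011 without all 3 stromal-positive libraries. Control replicate 3 had the lowest Csf1r of its group and the highest sum of stromal markers, whose part in these values was not tested. In such bulk samples fewer microglia and less RNA per cell cannot be told apart. The annotated gene overlaps Hmgxb3 on the other strand, and the strand setting of the counting is not given in the sources used here. Hmgxb3 was low, at 371 to 661 counts per library.

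Transcription factors known to bind the regulatory elements of Csf1r moved in both directions. Of 12 such factors, all tested, 3 rose and 6 fell after Pam3CSK4, where 41.4% of all tested genes changed. Their median log2 change was -0.49 after Pam3CSK4, -0.18 after IFN-gamma and -0.09 in the combined group, beside -0.04, -0.07 and -0.04 over all tested genes. The largest fall was that of Egr2, a zinc finger factor induced in macrophages by CSF1, which went from 16.7 ± 3.74 FPKM (SD, n = 3) to 0.803 ± 0.139 FPKM (n = 2), a log2 change of -4.41 ± 0.29 (SE, adjusted p = 6.59e-06). Cebpa and Fli1 fell by 1.32 and 1.07 on the log2 scale. After IFN-gamma alone 3 of the 12 rose and 5 fell, where 41.6% of all tested genes changed. Irf8, an interferon-induced factor of macrophages and microglia, rose by 1.84 ± 0.19 (adjusted p = 6.59e-05), from 57.6 to 195 FPKM on average. Ets1, Maf and Ets2 fell by 1.81, 1.52 and 1.29. In the combined group 5 rose and 5 fell, where 47.6% of all tested genes changed. There Egr2 was again low (2.94 ± 0.343 FPKM, n = 3), and Cebpb reached 296 ± 7.54 FPKM, a rise of 1.84 ± 0.21 over Control (adjusted p = 8.62e-05). With the stromal-positive libraries left out the counts were 3 up and 7 down after Pam3CSK4, 3 and 6 after IFN-gamma, and 4 and 6 in the combined group. In that fit 53.9%, 46.8% and 53.2% of all tested genes changed.

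**Figure D3:**
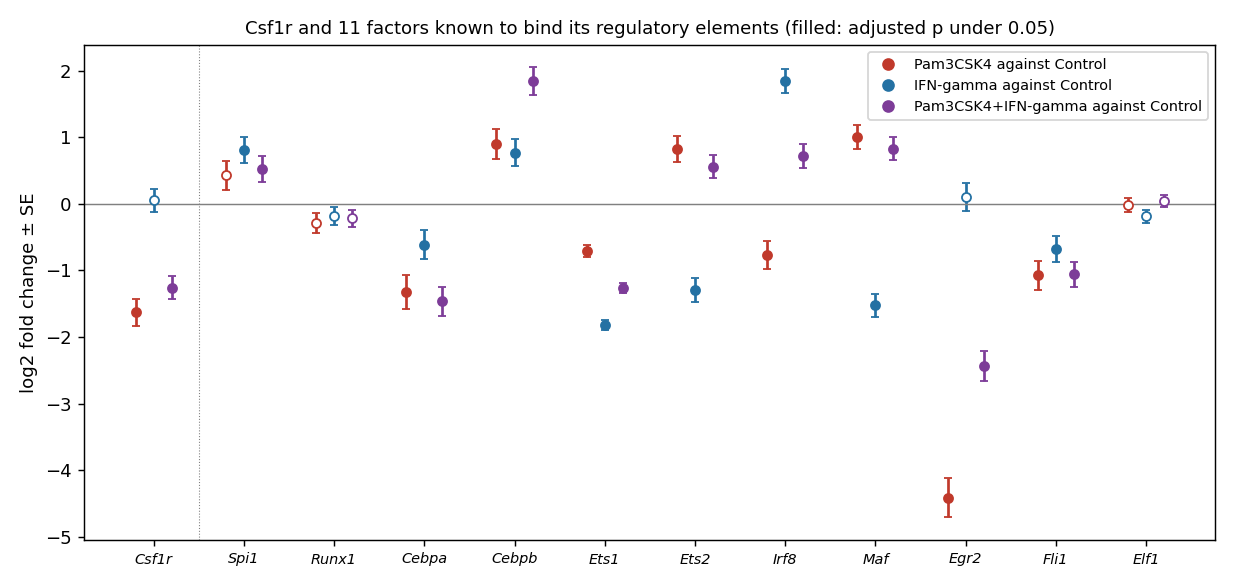
Log2 fold change against Control, with bars of 1 standard error, of Csf1r (left of the dotted line) and of 11 of the 12 factors known to bind its regulatory elements, with 1 colour per treatment and filled points for an adjusted p under 0.05. Egr2 fell with Csf1r in both groups given Pam3CSK4, whereas Irf8 was lower after Pam3CSK4 and higher after IFN-gamma.

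Of 21 listed genes of CSF1R signalling, 20 were tested, and the one left out was the ligand gene Il34. The list covers the pathway and not only steps downstream of the receptor. After Pam3CSK4 3 rose and 4 fell, after IFN-gamma 6 rose and 4 fell, and in the combined group 10 rose and 5 fell against Control, where 41.4%, 41.6% and 47.6% of all tested genes changed. The list's median log2 changes were 0.13, 0.15 and 0.32, beside -0.04, -0.07 and -0.04 over all tested genes. Leaving out the stromal-positive libraries gave 6 and 6, 9 and 4, and 11 and 6, where 53.9%, 46.8% and 53.2% of all tested genes changed. Tyrobp, the adaptor also called DAP12, fell from 2482 ± 543 FPKM (SD, n = 3) to 849.9 ± 30.7 FPKM (n = 2) after Pam3CSK4, a log2 change of -1.58 ± 0.24 (SE, adjusted p = 0.00079). Its partner kinase Syk moved the other way, from 12.8 ± 1.99 to 57.2 ± 1.73 FPKM (log2 change 2.14 ± 0.15, adjusted p = 8.84e-06). The Src-family kinase Fyn fell by 1.80 ± 0.22 (adjusted p = 0.00019). After IFN-gamma the adaptor Dok2 rose from 1.88 ± 0.232 to 16.0 ± 1.39 FPKM (log2 change 3.19 ± 0.18, adjusted p = 1.78e-06), and Pik3cd, a catalytic subunit of PI3-kinase, rose by 1.32 ± 0.22 (adjusted p = 0.00134).

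The ligand Csf1 (ENSMUSG00000014599, mm10 chr3:107741048-107760469) had the largest fitted changes of the members. It stood at 30.7, 42.3 and 54.7 FPKM in Control and at 1.52 and 1.16 FPKM in Pam3CSK4. IFN-gamma libraries had 18.9, 8.46 and 8.34 FPKM, and combined libraries 1.68, 1.18 and 9.49 FPKM. Control lay above all other groups, and in each of the 3 groups with a stromal-positive library, that library had the most Csf1. Csf1 fell by 4.99 ± 0.97 on the log2 scale after Pam3CSK4 (SE, adjusted p = 0.00289), which is 31.8-fold, and its log2 change was -4.81 with the stromal-positive libraries left out (adjusted p = 1.67e-06). In the combined group it fell by 3.27 ± 0.74 against Control (adjusted p = 0.00529), with a log2 change of -4.60 when those libraries were left out. After IFN-gamma alone the log2 change of -1.73 ± 0.70 missed the threshold (adjusted p = 0.0731). It passed without the stromal-positive libraries (-2.03 ± 0.20, adjusted p = 0.000102), without combined replicate 2 (-1.73, adjusted p = 0.0442), without combined replicate 3 (-1.74, adjusted p = 0.00426), with limma-voom (-1.81, adjusted p = 0.0423) and in a fit of both groups alone (-1.71, adjusted p = 0.0187). Over all 19 alternatives its adjusted p ran from 0.000102 to 0.191.

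Against IFN-gamma alone, Csf1 in the combined group differed by -1.54 ± 0.70 (adjusted p = 0.119). The lowest and highest adjusted p over the alternatives were 4.46e-05 and 0.315. Without combined replicate 3 the difference was -3.04 (adjusted p = 0.00118), without all 3 stromal-positive libraries it was -2.57 ± 0.21 (adjusted p = 4.46e-05), and with limma-voom it was -2.06 (adjusted p = 0.0307). Against Pam3CSK4, the combined group was at 1.72 ± 0.82 with all libraries (adjusted p = 0.268) and at 0.21 without combined replicate 3. Within groups the summed stromal markers moved with Csf1, but outside the stromal-positive libraries that sum was nearly all Cspg4. Those other libraries leave only a pair in each group. In each pair Acta2, at 1.41 FPKM or less, was higher where Csf1 was lower. The order within a pair so near the floor cannot show whether both move together. The part of stromal RNA in the IFN-gamma and combined values was not tested.

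**Figure D4:**
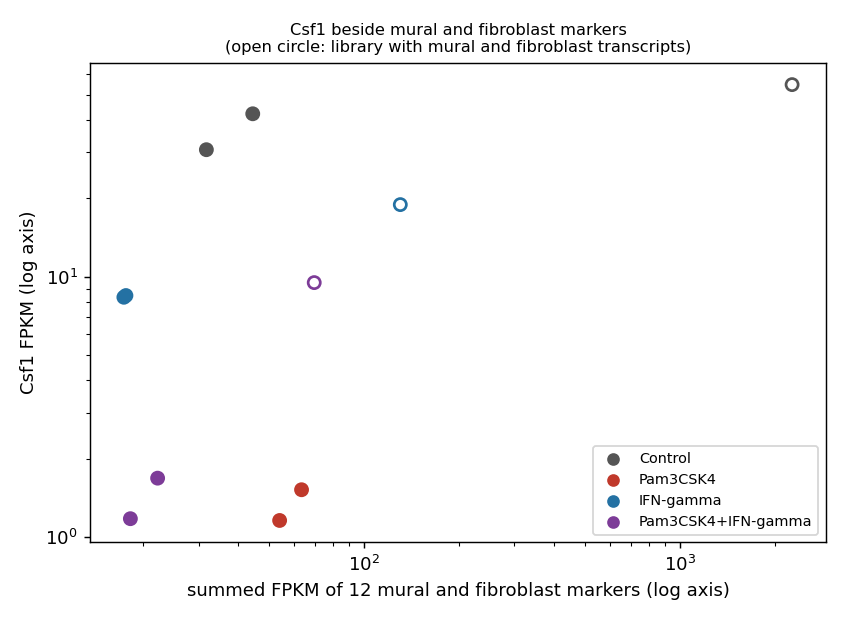
Csf1 level against the summed level of 12 mural and fibroblast markers, both in FPKM on log axes, with 1 point per library, colours for the 4 groups and open circles for the 3 stromal-positive libraries. Within Control, IFN-gamma and the combined group the open circle has the highest Csf1. The filled Control points (30.7 and 42.3 FPKM) lie far above the Pam3CSK4 points at similar marker sums, which in both were nearly all Cspg4.

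The Csf1 promoter is shown because this gene had the largest fall of the members. The stretch covers 250 bases upstream of the RefSeq start on GRCm38.p6, chr3:107760470-107760719, minus strand, printed 5′ to 3′. Capitals mark matches on either strand to an NF-kappaB pattern, GGG followed after 5 bases of any kind by CC, and overlapping matches are merged.
Csf1 promoter: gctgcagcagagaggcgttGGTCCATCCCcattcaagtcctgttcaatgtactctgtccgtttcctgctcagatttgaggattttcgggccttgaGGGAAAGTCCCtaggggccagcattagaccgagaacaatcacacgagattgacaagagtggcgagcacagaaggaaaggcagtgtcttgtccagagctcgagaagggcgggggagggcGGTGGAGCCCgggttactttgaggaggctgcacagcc
Of the 32851 RefSeq promoter windows in the table, which reach from 250 bases before to 50 after each start, 50.8% hold this pattern, so its presence does not set Csf1 apart.

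The other CSF1R ligand, interleukin-34, was close to absent. Il34 had 0 counts in 7 of 11 libraries and at most 16, in Control replicate 3, which is 0.258 FPKM. The other stromal-positive libraries had 7 (IFN-gamma) and 1 (combined), and Pam3CSK4 replicate 2 had 3.

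The receptor chains for GM-CSF followed a different order, with IFN-gamma cells highest. Csf2ra (ENSMUSG00000059326, mm10 chr19:61224402-61228418), the alpha chain, stood at 329.8, 351 and 374 FPKM in IFN-gamma and at 302, 300.4 and 299 FPKM in the combined group. Pam3CSK4 libraries had 247 and 278 FPKM, and Control libraries 256.5, 235 and 169 FPKM. IFN-gamma lay above the combined group and the combined group above the other groups without overlap, while Pam3CSK4 and Control overlapped. Csf2ra rose by 0.76 ± 0.18 on the log2 scale after IFN-gamma (SE, adjusted p = 0.008). After Pam3CSK4 the difference was 0.22 ± 0.20 (adjusted p = 0.393), so Csf2ra was the tested member not called lower there. The difference of 0.53 ± 0.18 between the combined group and Control passed narrowly (adjusted p = 0.036). It lost its call with the replicate block (0.54, adjusted p = 0.051), in a fit of both groups alone (adjusted p = 0.0932), and without IFN-gamma replicate 2 or combined replicate 1, 2 or 3 (adjusted p = 0.0511, 0.0795, 0.0877 and 0.0669). Over the 19 alternatives the adjusted p ran from 0.00502 to 0.0932. Combined against IFN-gamma was -0.24 ± 0.18 (adjusted p = 0.345), and -0.28 ± 0.09 without the stromal-positive libraries (adjusted p = 0.0424). Combined against Pam3CSK4 was 0.30 ± 0.20 (adjusted p = 0.443), and 0.32 ± 0.09 without those libraries (adjusted p = 0.0468). Control replicate 3, the library with the most stromal RNA, had the lowest Csf2ra of all, and the part of that RNA was not tested.

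The common beta chain Csf2rb (ENSMUSG00000071713, mm10 chr15:78325990-78351000) gave 4 groups that did not overlap. Its level was 118, 132 and 130.4 FPKM in IFN-gamma, 89.8, 84.0 and 77.6 FPKM in the combined group, 64.6, 59.1 and 68.6 FPKM in Control, and 38.5 and 38.7 FPKM in Pam3CSK4. Csf2rb fell by 0.74 ± 0.10 after Pam3CSK4 (adjusted p = 0.000408) and rose by 1.09 ± 0.09 after IFN-gamma (adjusted p = 2.03e-05). The combined group lay between, 0.48 ± 0.09 above Control (adjusted p = 0.0018), 0.61 ± 0.09 below IFN-gamma (log2 change -0.61, adjusted p = 0.000785) and 1.23 ± 0.10 above Pam3CSK4 (adjusted p = 8.95e-05). Its calls in these 5 pairwise comparisons held in all 19 alternatives run.

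Csf2rb2 (ENSMUSG00000071714, mm10 chr15:78282517-78305603), the IL-3 beta chain, is its neighbour on the chromosome. It stood at 110.3, 126 and 132 FPKM in IFN-gamma, 79.8, 76.3 and 77.5 FPKM in the combined group, 77.4, 65.4 and 68.6 FPKM in Control, and 25.1 and 30.9 FPKM in Pam3CSK4. IFN-gamma was highest and Pam3CSK4 lowest without overlap, and the combined group and Control overlapped. Csf2rb2 fell by 1.35 ± 0.15 after Pam3CSK4 (adjusted p = 0.000115) and rose by 0.90 ± 0.13 after IFN-gamma (adjusted p = 0.000557). The combined group differed from Control by 0.23 ± 0.13 (adjusted p = 0.163), from IFN-gamma by -0.67 ± 0.13 (adjusted p = 0.00344) and from Pam3CSK4 by 1.58 ± 0.15 (adjusted p = 0.000193). Csf2rb2 and Csf2rb were the 2 members called between the combined group and Pam3CSK4, both higher, where 9.11% of all tested genes changed and 6.06% were higher. Leaving out Control replicate 3 gave 5 called members there, and so did leaving out all 3 stromal-positive libraries. In the latter fit all 5 were higher, where 19.5% of all tested genes were called and 11.2% were higher.

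Both beta chain genes are near copies, and how the counting treated reads that match both is not given in the sources used here, so their separate values are uncertain. Their coding sequences of 2688 and 2634 bases shared 95.2% of 2628 aligned bases. Of all stretches of 50 coding bases in Csf2rb, 26.2% occurred unchanged in a Csf2rb2 transcript, and of stretches of 100 bases 11%. The first 90 coding bases, read from the GENCODE annotation on GRCm38, show how few bases tell them apart, with capitals at the 3 that differ.
Csf2rb coding bases 1 to 90: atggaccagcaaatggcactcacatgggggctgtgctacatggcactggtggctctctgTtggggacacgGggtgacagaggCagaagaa
Csf2rb2 coding bases 1 to 90: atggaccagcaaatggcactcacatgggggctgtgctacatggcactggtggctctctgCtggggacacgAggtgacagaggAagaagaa
Over the 11 libraries log2(FPKM + 1) of both genes had a Pearson r of 0.96, which is given as a description, since the genes share libraries and possibly reads.

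The Csf2rb2 promoter is shown as the one beta chain window found in the RefSeq table, for a gene that was highest after IFN-gamma. It covers 250 bases upstream of the start on GRCm38.p6, chr15:78305722-78305971, minus strand, 5′ to 3′. Capitals mark a match to the STAT-binding GAS pattern TTCNNNGAA, whose first base is at position -15 from the start, and the reverse complement of the PU.1 pattern GAGGAAG, at position -168.
Csf2rb2 promoter: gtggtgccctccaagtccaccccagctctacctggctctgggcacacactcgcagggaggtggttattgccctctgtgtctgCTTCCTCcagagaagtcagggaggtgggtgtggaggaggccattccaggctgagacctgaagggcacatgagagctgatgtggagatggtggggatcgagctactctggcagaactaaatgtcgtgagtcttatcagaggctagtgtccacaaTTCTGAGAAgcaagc
Both strands were searched, and 8.30% of all windows hold the GAS pattern and 13.6% the PU.1 pattern. Of the 8 members 5 had a promoter window, and Csf2rb2 was the one of them with a GAS match. The AP-1 pattern TGANTCA, the core ISRE pattern and the CK-1 pattern, present in 7.81%, 3.44% and 0.0396% of all windows, matched none of the 5.

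The GM-CSF gene itself was barely detected. Csf2 (ENSMUSG00000018916, mm10 chr11:54247271-54249667) had 0, 0 and 1 counts in Control, 2 and 1 in Pam3CSK4, 0 in every IFN-gamma library, and 0, 0 and 4 in the combined group. The 1 count of Control and the 4 of the combined group were in the stromal-positive libraries of those groups. The 3 counts after Pam3CSK4 against 1 in Control give a ratio of 4.32 per library total, with a 95% counting interval of 0.347 to 227, so no difference was detectable at this depth. The 0 counts of 50385987 in IFN-gamma allow up to 0.0595 CPM, and such limits cover counting error only. Gm12223, annotated on the other strand of the locus, had 0 counts throughout.

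Beta chain receptors signal through JAK2 and STAT5 and are held in check by SOCS proteins. Of 14 tested genes of 19 listed, 5 rose and 1 fell after Pam3CSK4, 8 rose and none fell after IFN-gamma, and 6 rose and none fell in the combined group against Control. Over all tested genes 41.4%, 41.6% and 47.6% changed in these comparisons. The list's median log2 changes were 0.01, 0.61 and 0.42, beside -0.04, -0.07 and -0.04 over all tested genes. Socs1, a feedback inhibitor of JAK kinases, went from 1.33 ± 0.335 FPKM in Control to 437.5 ± 23.2 FPKM after IFN-gamma (SD, n = 3 each), a log2 change of 8.47 ± 0.19 (SE, adjusted p = 5.31e-09). Pim1, a STAT5 target kinase, was 3.34 ± 1.99 FPKM in Control, 38.0 ± 0.361 in Pam3CSK4, 26.8 ± 1.86 in IFN-gamma and 98.7 ± 3.71 in the combined group. Socs2 and Cish, also on the list, were too low to be tested and did not follow Pim1. Socs2 averaged 1.05, 0.0641, 0.531 and 0.0767 FPKM in these groups in the same order, and Cish 0.376, 0.0949, 0.383 and 0.835 FPKM. Jak2, the kinase bound to the beta chain, rose by 2.61 ± 0.11 after Pam3CSK4 (adjusted p = 4.98e-07), and Il3ra, the IL-3 alpha chain, by 0.90 ± 0.18 after IFN-gamma (adjusted p = 0.00377). Stat5a and Stat5b, which these receptors activate, passed the test in no comparison (adjusted p for Stat5a against Control = 0.379, 0.082 and 0.512). Stat5a was 1.42 ± 0.207 FPKM in Control and between 1.31 and 1.55 FPKM on average in the treated groups. Il3 was listed at 0 in every library. Il3ra, Il3, Stat5a, Stat5b, Socs2 and Cish were named after their values were seen. Leaving out the stromal-positive libraries gave counts of 6 and 2, 8 and 0, and 7 and 0, where 53.9%, 46.8% and 53.2% of all tested genes changed.

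Of 13 genes known to respond to GM-CSF in myeloid cells, 6 passed the filter on low values and were tested. Of these 3 rose and 2 fell after Pam3CSK4, the same counts held after IFN-gamma, and 4 rose and 2 fell in the combined group against Control, where 41.4%, 41.6% and 47.6% of all tested genes changed. The median log2 changes of these 6 were 0.76, 1.72 and 1.71, beside -0.04, -0.07 and -0.04 over all tested genes, and do not cover the listed genes left out. Leaving out the stromal-positive libraries moved only the IFN-gamma count, to 4 and 2, while over all tested genes 53.9%, 46.8% and 53.2% changed. Itgax, which encodes CD11c, went from 207 ± 56.6 FPKM in Control to 33.3 ± 4.76 FPKM after Pam3CSK4, a log2 change of -2.67 ± 0.33 (adjusted p = 0.000208). Bhlhe40, a transcription factor, fell by 1.69 ± 0.09 (adjusted p = 1.96e-06). The chemokine Ccl22 moved up, from 0.144 ± 0.0876 FPKM in Control to 16.8 ± 4.41 FPKM after IFN-gamma (log2 change 6.96 ± 0.58, adjusted p = 2.06e-05). Ccl22 passed the filter only through treated libraries, being at most 0.239 FPKM in Control. Its rises, which are among those counted here, therefore start near the floor. Il1rn, the IL-1 receptor antagonist, reached 31.5 ± 1.30 FPKM in the combined group from 1.86 ± 0.733 in Control (log2 change 4.20 ± 0.22, adjusted p = 7.01e-07). Of the genes left out by the filter, Ccl17 and Cd209a were listed at 0 in every library. Cish and Fabp4 reached at most 1.02 and 0.803 FPKM in any library, and Pparg, Chil3 and Irf4 at most 0.160, 0.135 and 0.0608 FPKM.

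The G-CSF receptor Csf3r (ENSMUSG00000028859, mm10 chr4:126024550-126044440) fell after every treatment. It stood at 73.0, 78.2 and 50.4 FPKM in Control, 26.1 and 24.5 FPKM in Pam3CSK4, 24.2, 26.5 and 28.3 FPKM in IFN-gamma, and 31.2, 31.4 and 28.0 FPKM in the combined group. Control lay above all 8 treated libraries, and the treated groups overlapped in order. Csf3r fell by 1.44 ± 0.22 on the log2 scale after Pam3CSK4 (adjusted p = 0.000806), by 1.27 ± 0.19 after IFN-gamma (adjusted p = 0.000775) and by 1.08 ± 0.19 in the combined group (adjusted p = 0.00135). These 3 calls held in all 19 alternatives. The combined group differed from IFN-gamma by 0.19 ± 0.19 (adjusted p = 0.488) and from Pam3CSK4 by 0.36 ± 0.21 (adjusted p = 0.381). The latter became 0.37 with an adjusted p of 0.0361 without Control replicate 3, and 0.43 with an adjusted p of 0.0104 without the stromal-positive libraries. Neutrophils are the best known carriers of this receptor. Of 9 neutrophil markers 4 to 7 were at 0 in each library, with Mpo and Elane at 0 in all and Ly6g at most 0.0472 FPKM. S100a8 was present in every library, at 3.70 to 11.3 FPKM, and Camp reached 2.09 to 4.33 FPKM in the libraries given Pam3CSK4. The list summed to between 3.98 and 7.95 FPKM in Control, 4.00 and 6.77 in IFN-gamma, 8.59 and 9.21 in Pam3CSK4, and 9.09 and 13.6 in the combined group, and the part of such transcripts in the Csf3r values was not tested.

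Its ligand gene Csf3 (ENSMUSG00000038067, mm10 chr11:98701263-98703629) had few counts, and none in IFN-gamma. Control libraries had 0, 0 and 23 counts, Pam3CSK4 libraries 3 and 10, IFN-gamma libraries 0, 0 and 0, and combined libraries 13, 6 and 25. All 23 counts of Control were in its stromal-positive library, and the highest combined count was in the stromal-positive library of that group. The combined group, with 44 counts, was at least 12.3-fold higher than IFN-gamma, taking the 0 there as 3 counts over the group and the 44 counts as exact, and at least 5.28-fold higher in the same terms without the stromal-positive libraries (19 counts). The 95% counting intervals of these ratios, which allow for error in both counts, start at 9.60 and 3.89. Pam3CSK4 against Control gave a ratio of 0.815 with a 95% counting interval of 0.379 to 1.68. Without Control replicate 3 the Control total was 0, and Pam3CSK4 was at least 3.95-fold higher in those terms, with a counting interval that starts at 2.78. None of these values covers the spread between cultures. In the fits that kept Csf3, its difference between the combined group and IFN-gamma did not pass edgeR's test (adjusted p = 0.0797 without a filter and 0.0752 with filterByExpr).

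Of 12 listed genes of CSF3R signalling, 10 were tested, several of them shared with the lists above. After Pam3CSK4 5 rose and 1 fell, after IFN-gamma 6 rose and 1 fell, and in the combined group 7 rose and 1 fell, where 41.4%, 41.6% and 47.6% of all tested genes changed. The median log2 changes of the list were 0.30, 0.65 and 0.87, beside -0.04, -0.07 and -0.04 over all tested genes. These counts were the same without the stromal-positive libraries, where 53.9%, 46.8% and 53.2% of all tested genes changed. Socs3, the main brake on CSF3R, was 4.74 ± 5.31 FPKM in Control, 75.3 ± 8.75 in Pam3CSK4, 75.5 ± 8.13 in IFN-gamma and 260 ± 2.95 in the combined group. Its log2 change was 4.05 ± 0.68 after Pam3CSK4 (adjusted p = 0.00132) and 4.16 ± 0.66 after IFN-gamma (adjusted p = 0.000973). Stat3, which CSF3R activates, rose by 1.10 ± 0.20 after IFN-gamma (adjusted p = 0.00228). Cebpa, a factor of granulocyte development, had log2 changes of -1.32 ± 0.25 after Pam3CSK4 (adjusted p = 0.00254) and -1.46 ± 0.22 in the combined group (adjusted p = 0.00048).

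Transcripts of the secreted factors carry AU-rich elements that govern their decay. A list of 11 genes of mRNA decay and stabilisation, not all of which act on AU-rich elements, was tested in full. After Pam3CSK4 4 rose and 4 fell, and after IFN-gamma 2 rose and none fell. In the combined group 2 rose and 3 fell against Control. Over all tested genes 41.4%, 41.6% and 47.6% changed. The list's median log2 changes were 0.14, 0.02 and 0.04, beside -0.04, -0.07 and -0.04 over all tested genes. Zc3h12a, an RNase, went from 13.6 ± 1.77 to 81.5 ± 10.2 FPKM after Pam3CSK4 (log2 change 2.58 ± 0.10, adjusted p = 3.56e-07). The decay factors Zfp36l1 and Zfp36l2 fell by 2.20 ± 0.20 and 2.05 ± 0.18 (adjusted p = 3.03e-05 and 2.7e-05). Leaving out the stromal-positive libraries changed only the IFN-gamma count, to 2 and 1, while over all tested genes 53.9%, 46.8% and 53.2% changed.

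The interaction asked whether the Pam3CSK4 effect differed with and without IFN-gamma, as a log2 difference of both effects. Time since Pam3CSK4 may differ between both effects and cannot be told apart from IFN-gamma here. It was called for 2 of the 6 tested members, both positive, where 16.0% of all tested genes were called and 8.01% were positive. Csf3r had the firmer value, 1.63 ± 0.29 (SE, adjusted p = 0.00673), and its call held in all 18 alternatives. Pam3CSK4 lowered Csf3r from a Control mean of 67.2 ± 14.8 FPKM, whereas IFN-gamma cells were at 26.4 ± 2.09 without it and 30.2 ± 1.90 with it (SD). Csf2rb2, at 0.68 ± 0.19 (adjusted p = 0.0415), held in 6 of 18 alternatives, and its adjusted p ran from 0.00526 to 0.152. Csf1 missed the threshold at 3.45 ± 1.08 (adjusted p = 0.0591). With the stromal-positive libraries left out it was 2.23 ± 0.29 (adjusted p = 0.00145), and Csf1r was 0.38 ± 0.10 (adjusted p = 0.0229) in place of 0.31 ± 0.25 (adjusted p = 0.43). In that fit 4 of the 6 members were called, all positive, where 28.4% of all tested genes were called and 13.8% were positive. The Csf1r value also passed without Control replicate 3 (0.49, adjusted p = 0.00902), and the Csf1 value with DESeq2 (adjusted p = 0.0211) and without combined replicate 2 (adjusted p = 0.037). The values for Csf2ra, -0.46 ± 0.27 (adjusted p = 0.274), and Csf2rb, 0.14 ± 0.13 (adjusted p = 0.518), passed in no alternative.

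The genes whose pattern was most like a member's over the 11 libraries were ranked among 6367 tested genes by Pearson r of log2(FPKM + 1), a description without a test, since all points share the libraries and group means. Among the 3 closest to Csf1r were Mtus1 (r = 0.994) and Trem2 (r = 0.990), and both were also among the first 3 without the stromal-positive libraries. Trem2, a lipid receptor of microglia that signals through Tyrobp, had group means of 240.4 FPKM in Control, 224 in IFN-gamma, 47.0 in Pam3CSK4 and 53.5 in the combined group. Closest to Csf1 were Mmd (r = 0.961), Trf (r = 0.957) and Ttc9 (r = 0.953), none of which was among the first 3 without those libraries. Closest to Csf2ra were Lgals3bp (r = 0.988), Spi1 (r = 0.961) and Ptpn6 (r = 0.957), and these too left the first 3 without those libraries. Csf2rb was nearest to Cd300lf (r = 0.990), Klf6 (r = 0.981) and Scpep1 (r = 0.976), Csf2rb2 to Zfp36 (r = 0.988), Stk19 (r = 0.987) and Cmklr1 (r = 0.980), and Csf3r to Tecpr1 (r = 0.977), Pacs1 (r = 0.977) and Zrsr1 (r = 0.973). Of the 18 genes among the first 3 of a member, 12 left the first 3 without the stromal-positive libraries. Between members themselves, r was 0.82 for Csf1r and Csf1 and -0.59 for Csf2ra and Csf3r.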

How the data were processed

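Total RNA was sequenced from 11 libraries in 4 groups. The deposited table gives a whole-number count and an FPKM per gene and library, per the file headers; the submitters' processing notes name TopHat2 2.1.0, Cufflinks 2.1.1, Cuffdiff and mm10, with no role for each. The authors' FPKM equalled count divided by a gene constant and the library total to within a relative 2.82e-06, checked on 6617 genes above 200 counts in each library. Not given in the sources used here are the counting tool, its strand setting and how it treated shared reads. Levels are compared between genes only in FPKM, which is per length.

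Genes with at least 1 FPKM in at least 2 libraries (10938 of 34745) were tested in R 4.3.3 with the quasi-likelihood F test of edgeR 4.0.16 on the counts. Scaling was TMM, all 11 libraries entered 1 fit of 4 group means, tests were two-sided, and the threshold was a Benjamini-Hochberg adjusted p of 0.05. Standard errors were derived as the size of the log2 change over the root of F. Alternatives were RLE scaling, no filter, filterByExpr, DESeq2 1.42.0, limma-voom (limma 3.58.1), each library left out, the 3 stromal-positive libraries left out together (known from an earlier analysis of these data), the replicate number as a block, and only the 2 groups compared. The fit was tested on simulated data. The 6 pathway lists, 7 marker lists, motifs and members were chosen with earlier results of these data known.

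All members are named whatever their result. Some genes of the lists and rankings are not reported here by name. Of each pathway list up to 4 genes past the threshold with the largest change in a comparison are named, and for each tested member the 3 genes with the highest correlation among those with a mean of at least 5 FPKM in some group. Ranges of ratios of counts are exact binomial 95% intervals. No replicate pair was a duplicate (chi-square over counts, 15.7 to 176 per gene). No label ties replicate numbers to an animal, batch or day. Between same-numbered libraries the deviations from group means correlated at -0.596 to 0.544. For Control and the combined group all 3 pairs were above 0.1 (0.228, 0.219 and 0.505), so for that comparison the blocked value is printed where it changed a call. Promoters come from RefSeq (GRCm38.p6), coding sequences from GENCODE. In 1 label field the agonist of combined replicates 2 and 3 ends in other digits, which was read as a labelling slip.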

Additional observations from a re-analysis of the deposited data

Results flagged for a closer look

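For 17 genes the test of the interaction itself found that the Pam3CSK4 effect differed with and without IFN-gamma (edgeR's quasi-likelihood F test, adjusted p under 0.05). They are members and genes of the pathway lists, the latter named because they passed this test, so their number is not a result. Over all 10938 tested genes 16.0% were called. Genes ranked only for their likeness to a member were not included. Values are log2 differences between both effects with their standard errors. Time since Pam3CSK4 may also differ between both effects and cannot be told apart from IFN-gamma. Among the members, Csf3r stood at 1.63 ± 0.29 (adjusted p = 0.00673) and Csf2rb2 at 0.68 ± 0.19 (adjusted p = 0.0415), the latter called in 6 of 18 alternatives. The other 15 are pathway genes, of which 8 were called in all 18 alternatives run. Ccl22 among them was at most 0.239 FPKM in Control, so its value rests on a Control level near the floor. In that set the Pam3CSK4 effect was lower with IFN-gamma for Ccl22 (-8.11 ± 0.74, adjusted p = 0.00031), Socs1 (-4.28 ± 0.22, adjusted p = 1.32e-05) and Dok2 (-2.18 ± 0.25, adjusted p = 0.00103). It was higher for Egr2 (1.87 ± 0.33, adjusted p = 0.0067), Zfp36l1 (1.42 ± 0.24, adjusted p = 0.00579), Fabp5 (1.35 ± 0.21, adjusted p = 0.0041), Maf (1.34 ± 0.26, adjusted p = 0.00888) and Ets1 (1.25 ± 0.12, adjusted p = 0.000317).

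The other 7 lost their call in some alternatives. Jak2 (-0.72 ± 0.15, adjusted p = 0.0126) lost it only without Pam3CSK4 replicate 1 (adjusted p = 0.0573). Calls were made in 11 of 18 alternatives for Pim1 (-1.65 ± 0.41, adjusted p = 0.0265), 10 for Ets2 (1.03 ± 0.26, adjusted p = 0.0285), 9 for Sos1 (0.51 ± 0.12, adjusted p = 0.0249), 8 for Mapkapk2 (-0.64 ± 0.17, adjusted p = 0.0351), 6 for Zfp36 (0.57 ± 0.15, adjusted p = 0.0323) and 5 for Gab2 (0.77 ± 0.21, adjusted p = 0.0351). Leaving out the 3 stromal-positive libraries, Sos1 was the gene of the 17 not called (0.39, adjusted p = 0.0875). The Pam3CSK4 group has 2 libraries, so each of these values rests on a pair on 1 side.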

How the results depend on the processing

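Over the alternatives, 633 of the members' log2 changes kept their direction and their side of the threshold, 24 newly passed, 18 no longer passed and 3 reversed. The reversals were all of Csf1r between IFN-gamma and Control, at -0.11 without Control replicate 3, -0.0078 without IFN-gamma replicate 3 and -0.0399 without the 3 stromal-positive libraries. Over leaving out each library its value ran from -0.11 to 0.19. Leaving out 1 library at a time gave 1 to 3 members called in the interaction, 2 to 5 for the combined group against Pam3CSK4 and 3 to 4 against IFN-gamma. With the 3 stromal-positive libraries left out the counts were 4, 5 and 5. A fit of the combined group and Pam3CSK4 alone called 5. The interaction count was 1 with no low-value filter and with filterByExpr, where more genes were tested. The cause of the shifts in these counts was not tested.

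With the replicate block the interaction count was 1 and Csf2ra between the combined group and Control lost its call (0.54, adjusted p = 0.051). The member count there was 4, and no other pairwise member count moved under the block.

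Counts over all genes moved by over 1.5 times in 3 comparisons. For Pam3CSK4 against Control the 4532 became 2874 without Pam3CSK4 replicate 2 and 2642 in a fit of both groups alone. For the combined group against Pam3CSK4 the 996 became 1536 with DESeq2, 2021 without Control replicate 3, 403 and 405 without Pam3CSK4 replicates 1 and 2, 613 and 592 without combined replicates 1 and 2, 2131 without the 3 stromal-positive libraries and 2314 in a fit of both groups alone. For the interaction the 1753 became 1080 with no filter, 3243 without Control replicate 3, 1038 and 664 without Pam3CSK4 replicates 1 and 2, 1134 without IFN-gamma replicate 3, 993 and 1053 without combined replicates 1 and 2, and 3105 without the stromal-positive libraries. At 15033702 to 20321017 counts a library, Csf2, Csf3 and Il34 could be given only as counts.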

Other observations

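Some genes of the marker lists differed by treatment. They were chosen after their values were seen, and no test was run. Flt1, a VEGF receptor on the endothelial list, stood between 11.0 and 28.3 FPKM in the 6 libraries without Pam3CSK4 and between 1.16 and 1.55 FPKM in the 5 with it. Other genes of that list followed another pattern. Cdh5 and Esam were highest in Control replicate 3, at 13.7 and 13.6 FPKM, Cdh5 was at 1.96 and 1.63 FPKM in the other stromal-positive libraries, Kdr was between 0.344 and 1.41 FPKM in all libraries, and Cldn5 was listed at 0. Camp, the cathelicidin gene on the neutrophil list, stood between 2.09 and 4.33 FPKM in the libraries given Pam3CSK4 and at 0.175 FPKM or less in the others. Ly6c2, a monocyte marker, stood between 2.54 and 6.97 FPKM in the libraries given Pam3CSK4 and at 0.90 FPKM or less in the others. Ccr2, on the same list, was between 0.109 and 0.263 FPKM without Pam3CSK4 and between 0.00917 and 0.0706 FPKM with it.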
